A study of Mus musculus with 12 samples.

Results

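Among 9 RNA sequencing libraries of mouse bone marrow, the 3 that carry the replicate number 3, 1 for each of 3 genotypes, differed from the 6 libraries numbered 1 and 2 in many of the same genes. Of 12 labelled samples in the series, the 9 were taken by 2 criteria: a genotype that has all of the numbers 1, 2 and 3, and a column of counts under that number. The genotypes are WT, Tet2+/- (1 functional copy of Tet2, whose protein oxidizes methylated cytosine in DNA) and Tet2+/-;Ins2Akita/+, called the double mutant below. The Ins2Akita allele encodes a misfolding insulin and makes mice diabetic. All libraries came from total RNA of C57BL/6 mice, from marrow cells labelled Lin-negative, which are cells left after those with surface markers of mature lineages are taken away. The labels give no age, no sex and no way of depletion, and do not say what a replicate number stands for or whether 2 libraries came from separate mice. No sample of Ins2Akita/+ alone is labelled number 3, so that genotype was not used, nor was the fourth sample labelled as double mutant.

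The number 3 libraries were chosen by values measured in these same counts: they had stood out as high in erythroid genes and in mitochondrially encoded RNA and low in neutrophil genes. Because those values chose the libraries, the shift of number 3 against numbers 1 and 2 is described here with no test. The test is kept for another question, whether the size of that shift differed between genotypes. Levels are CPM, counts scaled to a common library size after TMM scaling, and the shift of a gene is its log2 CPM in number 3 minus the mean log2 CPM of numbers 1 and 2 of the same genotype. A shared shift is the mean of the 3 genotypes' shifts with its SD (n = 3 genotypes). A gene is called shifted where it was at least 1 log2 unit higher, or lower, in all 3 genotypes.

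Library totals ran from 14814409 to 22600405 counts, and the number 3 libraries held 14814409 in WT, 20413130 in Tet2+/- and 17138242 in the double mutant. Between 13840 and 14541 genes had at least 10 counts in a library. The 50 most abundant genes took 12.4 to 17.4% of the counts in 8 libraries and 25.9% in number 3 of the double mutant. Tet2 itself, on chr3:133463679-133545139 of GRCm38, stood at 90.8, 128 and 44.3 CPM in WT 1, 2 and 3 and at 18.9, 18.7 and 18.8 CPM in the Tet2+/- libraries. The libraries labelled as double mutant had 66.6, 107 and 34.4 CPM, above every Tet2+/- library, which goes against the allele their label shares with Tet2+/-. Every statement on the double mutant below is therefore on the libraries labelled so. Number 3 had the lowest Tet2 level of its genotype in WT and in the double mutant.

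Marrow depleted of mature cells is a mixture of stem cells and of the precursors of each blood lineage, so RNA counts follow both which precursors are present and what each transcribes. Erythroid precursors switch on Gata1 and Klf1, then the erythropoietin receptor, membrane skeleton and heme genes, and late in maturation load their RNA with globin messages. Neutrophil precursors first make the proteases of the primary granules and later the proteins of the secondary granules and the S100 proteins. In bulk RNA, fewer cells of a type and less RNA per cell cannot be told apart.

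Binding sites for GATA1 hold the letters GATAA and those for KLF1 the letters CACCC, so the promoters of genes on both sides of the erythroid pattern are shown. Klf1 and Epor were shifted higher in all 3 genotypes, while the adult globin genes Hba-a1 and Hbb-bs were not. Each line is the 250 bases before the RefSeq start of the gene (GRCm38.p6), 5′ to 3′ on the gene's strand, with matches of GATAA and CACCC on either strand in capitals, so that a match on the other strand reads TTATC or GGGTG. The windows lie at chr8:84901732-84901981 (plus strand) for Klf1, chr9:21963577-21963826 (minus strand) for Epor, chr11:32283422-32283671 (plus strand) for Hba-a1 and chr7:103827929-103828178 (minus strand) for Hbb-bs.
Klf1: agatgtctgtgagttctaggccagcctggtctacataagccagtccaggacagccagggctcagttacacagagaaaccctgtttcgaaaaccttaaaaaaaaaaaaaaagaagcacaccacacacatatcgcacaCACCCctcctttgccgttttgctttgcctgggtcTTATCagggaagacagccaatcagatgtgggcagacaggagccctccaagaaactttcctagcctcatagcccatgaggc
Epor: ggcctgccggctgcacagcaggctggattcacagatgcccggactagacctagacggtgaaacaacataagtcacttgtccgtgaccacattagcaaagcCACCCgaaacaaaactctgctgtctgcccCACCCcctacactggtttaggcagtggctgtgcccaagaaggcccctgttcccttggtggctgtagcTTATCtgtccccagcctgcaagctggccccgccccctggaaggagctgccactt
Hba-a1: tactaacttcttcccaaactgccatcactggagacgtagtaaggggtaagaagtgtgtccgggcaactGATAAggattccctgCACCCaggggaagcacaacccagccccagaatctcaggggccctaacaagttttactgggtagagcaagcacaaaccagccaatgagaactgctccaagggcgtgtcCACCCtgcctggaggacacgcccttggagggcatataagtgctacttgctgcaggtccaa
Hbb-bs: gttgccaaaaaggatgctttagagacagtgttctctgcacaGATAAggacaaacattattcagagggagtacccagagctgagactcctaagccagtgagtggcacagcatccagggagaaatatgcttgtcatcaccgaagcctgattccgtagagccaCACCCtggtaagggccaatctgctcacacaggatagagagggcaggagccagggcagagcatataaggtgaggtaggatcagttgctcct

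All 4 windows held 1 match of GATAA, and they held 1, 2, 2 and 1 matches of CACCC in the order printed, so these letters did not separate the shifted from the unshifted genes shown. Of 10493 tested genes with a promoter sequence in the RefSeq table, 15.3% had GATAA in such a window. The share was 19% for the 411 genes higher in number 3 and 13% for the 706 genes lower in number 3. It was 73.3% (11 of 15) for the erythroid membrane and globin genes, 28.6% (6 of 21) for the maturing neutrophil genes and 0 of 8 for the neutrophil primary granule genes. CACCC was in 57.1% of all windows, in 61.1% of those of the higher and in 65% of those of the lower genes. A match is a description of letters and shows no binding.

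Mitochondrially encoded RNA took a larger share of number 3 in each genotype. The share was 1.87, 1.74 and 3.43% of counts in WT 1, 2 and 3, 1.36, 1.66 and 4.46% in Tet2+/-, and 1.48, 1.45 and 9.76% in the double mutant. The 95% binomial interval (exact, Clopper-Pearson) of the last share was 9.75 to 9.78%, and those of the others were no wider. These intervals cover counting error only. Number 3 lay outside the range of numbers 1 and 2 in every genotype. Its ratio to their mean was 1.9 in WT, 2.95 in Tet2+/- and 6.67 in the double mutant, a mean of 3.84 ± 2.51 (SD, n = 3 genotypes). Without the double mutant, the mean ratio was 2.42. The 2 mitochondrial ribosomal RNAs alone gave ratios of 1.99, 2.1 and 5.14.

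**Figure D1:**
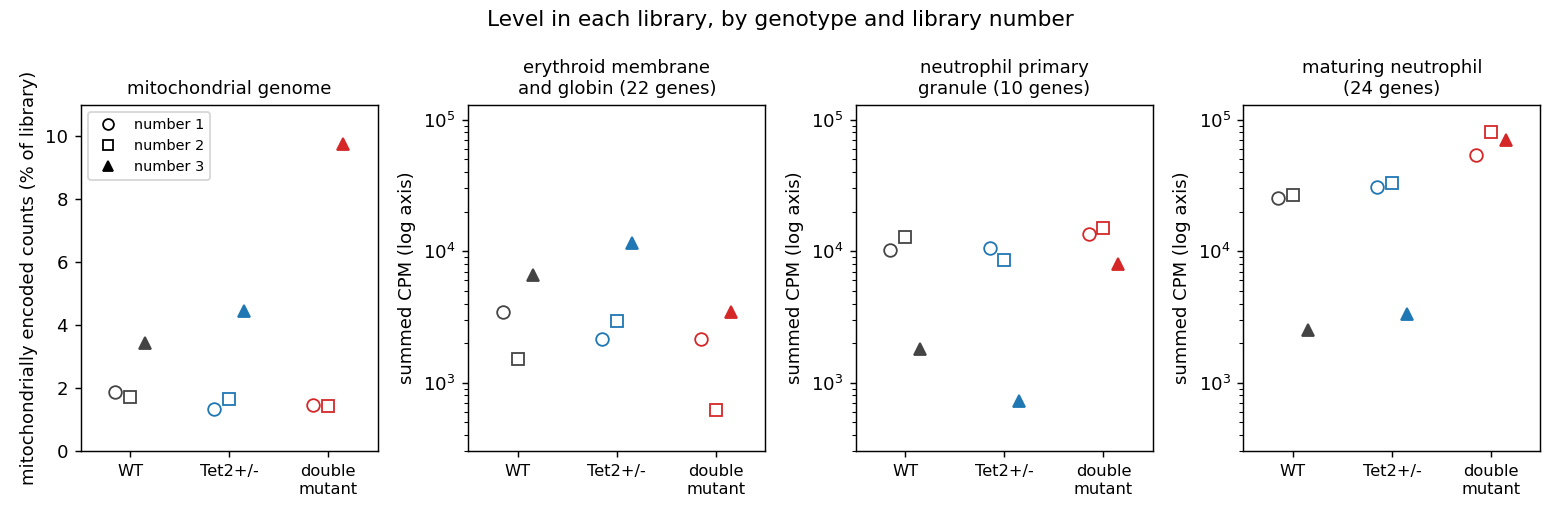
Share of mitochondrially encoded counts (percent of library, linear axis) and summed CPM of 3 gene lists (log axes) in each of the 9 libraries, by genotype; circles, squares and filled triangles are numbers 1, 2 and 3. The triangle is highest for the mitochondrial share and the erythroid list in each genotype and lowest for the primary granule list, while for the maturing neutrophil list it is lowest in WT and Tet2+/- but lies between numbers 1 and 2 in the double mutant.

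Of 14914 genes that passed the filter on low counts, 581 (3.9%) were higher and 1003 (6.73%) lower in number 3 by at least 1 log2 unit in all 3 genotypes. Number 2 against number 1, taken by the same rule, gave 3 genes higher and 4 lower. The SD of the shift across genes was 1.13 in WT, 1.28 in Tet2+/- and 0.953 in the double mutant, against 0.419, 0.605 and 0.484 for number 2 minus number 1. Across genes the shifts of WT and Tet2+/- had a Pearson correlation of 0.804, those of WT and the double mutant 0.604 and those of Tet2+/- and the double mutant 0.546. These are descriptions over genes, which are not independent, although each pair of shifts rests on separate libraries. In single genotypes the counts were 1697 higher (11.4%) and 2769 lower (18.6%) in WT, 2368 (15.9%) and 3365 (22.6%) in Tet2+/-, and 1612 (10.8%) and 1661 (11.1%) in the double mutant. Left to WT and Tet2+/- alone, without number 3 of the double mutant, the rule found 1431 genes higher and 2149 lower. The smallest of a gene's 3 shifts was 0.9988 for Mitd1 and, among the lower genes, 0.9997 in size for Arid5a, both just outside the rule, and 1.002 for Ptgs2 and 1.003 in size for Ckap4, both just inside.

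The 12 genes most raised in number 3, taken by the smallest shift over the 3 genotypes among genes averaging at least 10 CPM, were Cxcl12, Sphk1, Car1, Epdr1, Aldh1a7, Atp7b, Atp1b2, Pklr, Sh2d4a, Slc25a21, Cela1 and Sdsl. Car1 encodes carbonic anhydrase 1 and Pklr the pyruvate kinase of liver and red cells, both abundant in red cell precursors. Sphk1 makes sphingosine 1-phosphate, which red cells store. Car1, on chr3:14766216-14808368, stood at 377, 123 and 1420 CPM in WT 1, 2 and 3, at 152, 242 and 2230 CPM in Tet2+/-, and at 215, 81.9 and 1030 CPM in the double mutant. Number 3 of each genotype was above all 6 libraries numbered 1 and 2, with a shared shift of 3.07 ± 0.42 log2 units. Pklr had 43.9, 26.4 and 285 CPM in WT, 29.2, 24.8 and 437 CPM in Tet2+/-, and 30.5, 8.77 and 99.1 CPM in the double mutant. Its shared shift was 3.22 ± 0.73, and again no library numbered 1 or 2 reached a number 3 library.

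Cxcl12 stood first among the higher genes. It encodes the chemokine that stromal cells of marrow use to hold stem cells and neutrophils, and lies on chr6:117168535-117181367. It stood at 3.81, 1.3 and 21 CPM in WT, 2.32, 2.87 and 30.3 CPM in Tet2+/-, and 1.86, 1.49 and 39.9 CPM in the double mutant. The shared shift was 3.72 ± 0.69. Of 18 genes listed as markers of marrow stroma and endothelium, 12 passed the filter and 5 were shifted higher (Cxcl12, Stab2, Col1a2, Sparc and Lepr). Of all genes tested, 3.9% were shifted higher. All of the 5 but Cxcl12 averaged less than 2.32 CPM, the mean of Cdh5. The filter can keep a low gene counted only in the 3 libraries numbered 3, so this count may partly follow from the filter. Pdgfrb, the most abundant member, was not shifted, at 0.954, -0.158 and 1.58. Their levels summed over the list stayed low, from 21.5 to 40 CPM in numbers 1 and 2 and 61.5 to 118 CPM in number 3. Pdgfra, Col3a1, Dcn, Lum, Bglap and Adipoq did not pass the filter, and the collagen gene Col1a1 was at 1.66 CPM in WT 3 against 4.91 and 4.34 CPM in WT 1 and 2. What part stromal cells had in the shift was not tested.

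The 12 genes most lowered by the same rule were Creb5, Fcnb, Emp1, Mmp19, Cx3cl1, Cxcl16, Fn1, Rassf8, Acod1, Sh3bp4, Relb and Sgms2. Fcnb encodes ficolin B, a lectin of neutrophil precursors; Acod1 makes itaconate in activated macrophages; Relb is a subunit of NF-kB; Cx3cl1 and Cxcl16 are membrane chemokines. Creb5, a bZIP transcription factor on chr6:53287270-53700376, had 20.2, 26.5 and 0.178 CPM in WT, 30.5, 14 and 0.375 CPM in Tet2+/-, and 33.3, 22.1 and 0.383 CPM in the double mutant. Its shared shift was -5.86 ± 0.47, with number 3 close to 0 in each genotype. Fcnb had 372, 345 and 5.89 CPM in WT, 29.9, 21.7 and 0.375 CPM in Tet2+/-, and 307, 495 and 10.5 CPM in the double mutant. Its level in numbers 1 and 2 was lower in Tet2+/- than in the other genotypes, yet the shift was alike, -5.61 ± 0.37. Relb had 117, 98.9 and 9.57 CPM in WT, 76.8, 93 and 6.9 CPM in Tet2+/-, and 86.5, 89.3 and 8.42 CPM in the double mutant, a shared shift of -3.48 ± 0.11.

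**Figure D2:**
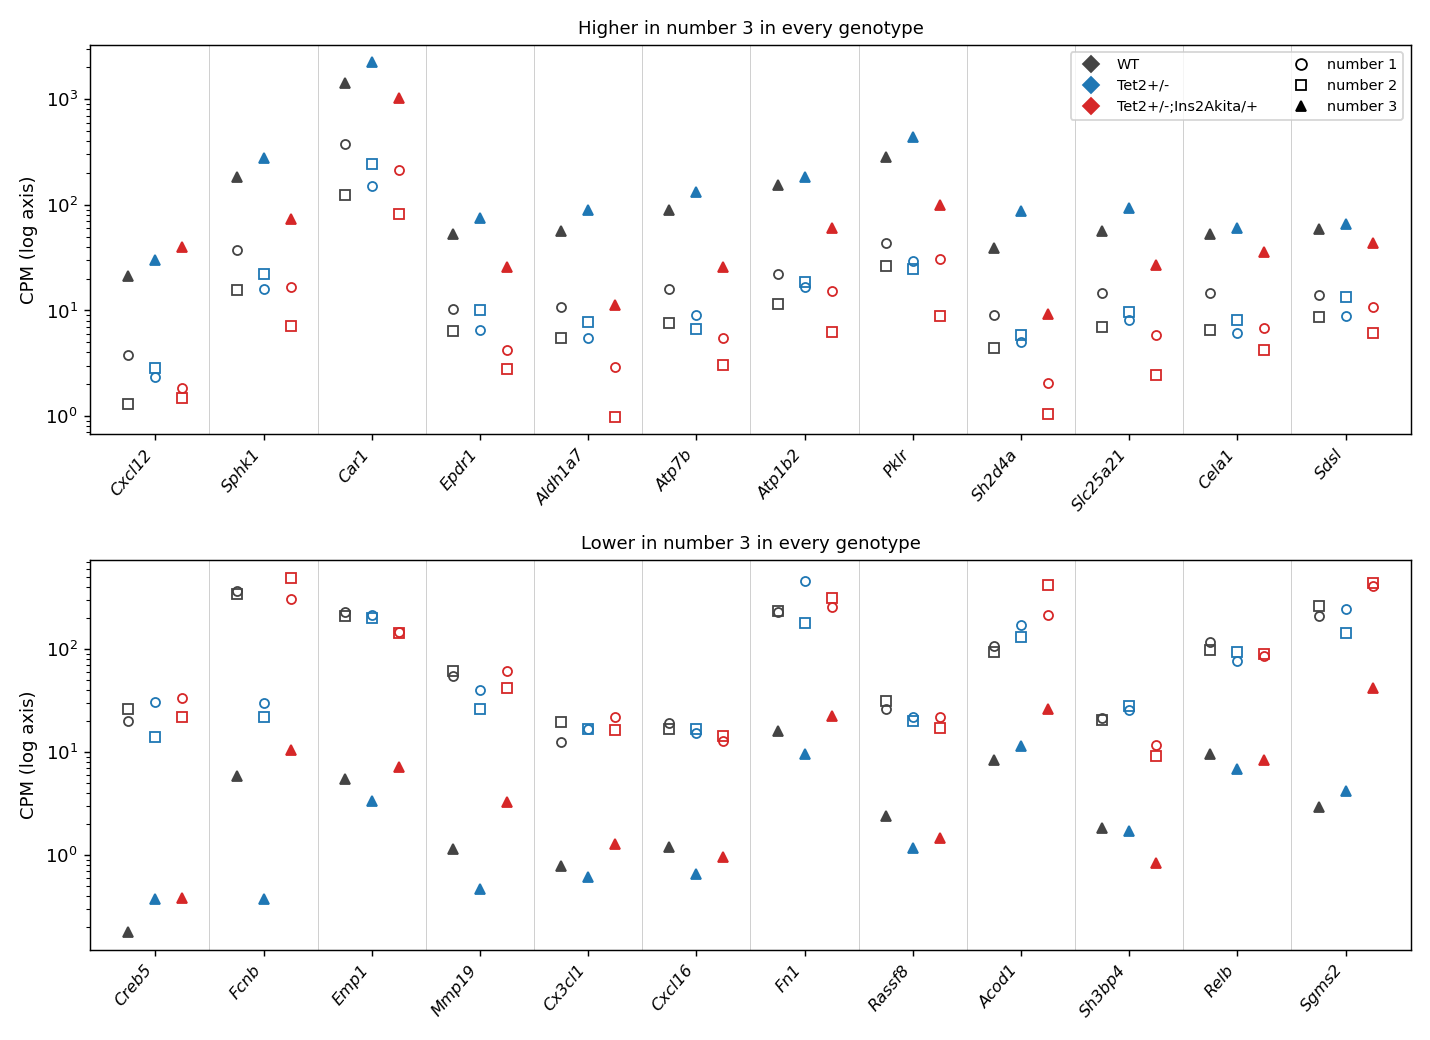
CPM (log axis) in each of the 9 libraries for the 12 genes most raised (top) and the 12 most lowered (bottom) in number 3; colours are genotypes, filled triangles number 3, open circles and squares numbers 1 and 2. In every gene and genotype the triangle lies beyond both open symbols. The genes were chosen for a large difference of number 3 from the mean of numbers 1 and 2.

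Regulators of the erythroid lineage stood higher as a group. Of 10 listed, all passed the filter and 8 were shifted higher (Gata1, Klf1, Epor, Gfi1b, Tal1, Tfr2, Lmo2 and Zfpm1), none lower, beside 3.9% and 6.73% of all genes tested. The medians of the list were 1.95 in WT, 2.42 in Tet2+/- and 1.64 in the double mutant, where the median of all tested genes lay between -0.02 and 0.011. Klf1, the transcription factor that drives adult globin and membrane genes, had 75.4, 33.7 and 246 CPM in WT, 34.1, 63.6 and 355 CPM in Tet2+/-, and 30.7, 12.1 and 71.6 CPM in the double mutant. Epor, the erythropoietin receptor, had 29.4, 15.1 and 89.9 CPM in WT, 15.2, 26.7 and 156 CPM in Tet2+/-, and 13.4, 5.94 and 37.5 CPM in the double mutant. Within genotypes number 3 was highest for both genes, but for Klf1 number 3 of the double mutant was below WT 1. The 2 listed genes not shifted were Tfrc, the transferrin receptor, whose shifts were 1.1, 1.57 and 0.0786, and Nfe2, a factor shared with megakaryocytes, at -0.63, -0.49 and -0.5.

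Genes of the red cell membrane followed, while globin genes did not. Of 22 listed erythroid membrane and globin genes, 12 were shifted higher and none lower, beside 3.9% and 6.73% of all genes tested. The list's medians were 1.35, 2.29 and 1.41 in WT, Tet2+/- and the double mutant. The 12 included Car1, Car2, Ermap, Sptb, Ank1, Rhd, Kel, Hemgn, Rhag, Cldn13 and Tspo2. Car2, carbonic anhydrase 2, had 677, 343 and 1930 CPM in WT, 405, 669 and 3160 CPM in Tet2+/-, and 376, 133 and 807 CPM in the double mutant. Hbb-bs, an adult beta globin, had 354, 102 and 131 CPM in WT, 194, 400 and 335 CPM in Tet2+/-, and 261, 56.7 and 113 CPM in the double mutant. Number 3 therefore lay within the range of numbers 1 and 2 for this gene in all 3 genotypes, and the shared shift was -0.13 ± 0.40. The shared shifts of Hba-a1, Hba-a2 and Hbb-bt, other adult globins, were 0.40 ± 0.37, -0.03 ± 0.18 and 0.29 ± 0.43. Reads of near-identical globin copies may be split between them, so single globin values are uncertain. Slc4a1, the band 3 anion exchanger of mature red cells, was not shifted either, with shifts of -0.10, 1.29 and 0.29.

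Numbers 1 and 2 differed in the same erythroid genes in WT and the double mutant. The list's median difference of number 2 minus number 1 was -1.11 in WT, 0.315 in Tet2+/- and -1.81 in the double mutant. Summed over the list, number 3 had 6604 CPM against 3456 and 1505 in WT, 11500 against 2155 and 2961 in Tet2+/-, and 3442 against 2137 and 620 in the double mutant. In heme synthesis and iron handling, 5 of 15 genes were shifted higher, among them Cpox, Alad, Urod and Steap3, and none lower. Of all genes tested, 3.9% were shifted higher and 6.73% lower. Cpox, coproporphyrinogen oxidase of heme synthesis, had 153, 81.1 and 354 CPM in WT, 104, 118 and 567 CPM in Tet2+/-, and 86.3, 40.1 and 154 CPM in the double mutant. Alas2, the erythroid enzyme of the first step, had shifts of -0.38, 1.02 and 0.16 and was not shifted. The ferritin chains Fth1 and Ftl1 had shared shifts of -0.02 ± 0.21 and -0.51 ± 0.51.

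Cell cycle genes stood higher in number 3 of WT and Tet2+/- and not in the double mutant. The medians over 18 S phase genes were 0.52, 1.04 and -0.08 in WT, Tet2+/- and the double mutant, and over 16 genes of G2 and mitosis 0.80, 1.15 and -0.04. No gene of either list was shifted in all 3 genotypes. Ccna2, cyclin A2, had 138, 121 and 268 CPM in WT, 129, 132 and 400 CPM in Tet2+/-, and 135, 143 and 153 CPM in the double mutant.

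In the neutrophil lists the genotypes parted. The 10 primary granule genes were lower in number 3 in every genotype, with medians of -2.53 in WT, -3.65 in Tet2+/- and -0.76 in the double mutant. Of the 10, 3 (Elane, Prtn3 and Fcnb) were shifted lower, beside 6.73% of all genes tested. Elane, neutrophil elastase, on chr10:79886247-79888215, had 1700, 1910 and 96.8 CPM in WT, 1450, 1470 and 40.5 CPM in Tet2+/-, and 2000, 2160 and 929 CPM in the double mutant. Mpo, myeloperoxidase, had 5510, 7360 and 1130 CPM in WT, 6280, 4540 and 445 CPM in Tet2+/-, and 7400, 7510 and 4570 CPM in the double mutant. Number 3 of the double mutant was thus below its own numbers 1 and 2 for both genes but above number 3 of the other genotypes.

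None of 24 genes of maturing neutrophils was shifted in all 3 genotypes. Their medians were -2.6 in WT, -2.77 in Tet2+/- and 0.18 in the double mutant. S100a9, a calcium-binding protein of the neutrophil cytosol, had 6170, 6160 and 536 CPM in WT, 7740, 8660 and 869 CPM in Tet2+/-, and 11900, 21100 and 18400 CPM in the double mutant. Ltf, lactoferrin, had 2470, 2900 and 327 CPM in WT, 3020, 3210 and 381 CPM in Tet2+/-, and 5850, 8440 and 8470 CPM in the double mutant. Summed over the list, number 3 had 2515 CPM in WT and 3329 in Tet2+/-, against 25260 to 33180 in their numbers 1 and 2, while number 3 of the double mutant had 70240 beside 53520 and 80950. These genes belong to a mature lineage and were abundant in libraries labelled Lin-negative.

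Whether the shift differed between genotypes was tested with edgeR's quasi-likelihood test, with p adjusted over all 14914 genes by Benjamini and Hochberg. Each genotype has 1 library numbered 3, so the error comes only from the 3 pairs of numbers 1 and 2. The number 3 libraries are assumed to vary like those, which cannot be checked here. In each call below, an effect of genotype and a difference between single number 3 libraries cannot be told apart. At an adjusted p under 0.05 the shift differed between double mutant and WT for 136 genes (0.912%), 125 of them higher in the double mutant (0.838%) and 11 lower (0.0738%). Between double mutant and Tet2+/- it differed for 1485 genes (9.96%), 1044 higher (7%) and 441 lower (2.96%). Between Tet2+/- and WT it differed for 1 gene, with 1376 genes at an unadjusted p under 0.05. The 3 differences share libraries and are not independent of each other. An F test over the 3 genotypes called 621 genes (4.16%).

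These counts depended on single libraries and on the block for the library number. With number 2 as a further term in the fit, 84 and 921 genes were called for double mutant minus WT and minus Tet2+/-, and 73 and 881 of these were among the 136 and 1485. For double mutant minus WT, 29 genes were called without WT 1, 43 without WT 2 and 59 without number 1 of the double mutant, against 382 and 403 without Tet2+/- 1 or 2. For double mutant minus Tet2+/-, the counts were 448 and 529 without WT 1 or 2, 379 and 650 without numbers 1 or 2 of the double mutant, and 3215 and 2461 without Tet2+/- 1 or 2. Tet2+/- minus WT gave 130 and 39 genes without Tet2+/- 1 or 2.

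The shift of neutrophil genes was less negative in the double mutant. The calls of Elane, Chil3, Camp and Olfm4 against WT, given next, remained under each of the 7 omissions of 1 library that left both number 3 libraries. Elane's shift was higher in the double mutant by 3.06 ± 0.28 log2 units (SE) than in WT, with an adjusted p of 0.0105, and by 4.01 ± 0.29 than in Tet2+/-, with an adjusted p of 0.00358. Chil3, a chitinase-like protein of neutrophil precursors on chr3:106147554-106167564, had 901, 1000 and 69.8 CPM in WT, 1790, 2070 and 72.6 CPM in Tet2+/-, and 2640, 2650 and 1840 CPM in the double mutant. The difference was 3.25 ± 0.30 against WT (adjusted p = 0.0105) and 4.21 ± 0.30 against Tet2+/- (adjusted p = 0.00358). Camp, the cathelicidin of secondary granules, had 2420, 2380 and 158 CPM in WT, 1980, 2530 and 157 CPM in Tet2+/-, and 3880, 4640 and 3230 CPM in the double mutant. Olfm4, a granule glycoprotein found in a subset of neutrophils, had 104, 78.7 and 1.72 CPM in WT, 40.2, 26.8 and 5.68 CPM in Tet2+/-, and 147, 206 and 175 CPM in the double mutant. Number 3 of the double mutant lay at or near the level of its own numbers 1 and 2 in Camp and Olfm4, where number 3 of WT and Tet2+/- lay far below theirs.

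The other genes with the smallest p for a higher shift against WT were Rflnb, Rhou, Mgst2, Sept5, Clec4a2 and Ltb4r1, the last a receptor for leukotriene B4 on neutrophils. Each was at 2.2 to 9.21 CPM in number 3 of WT, against 38.3 to 173 CPM in number 3 of the double mutant. By list, the double mutant's shift was higher than that of WT for 4 of 10 primary granule genes and 13 of 24 maturing neutrophil genes, and lower for none. Against Tet2+/- it was higher for 9 of 10 and 18 of 24. Of all genes tested, 0.838% were called higher against WT and 7% against Tet2+/-. With the replicate block the counts were 2 and 14 against WT and 9 and 16 against Tet2+/-. Without WT 1 the counts against WT were 1 and 2, and without WT 2 they were 1 and 4. For the primary granule list the count against WT was also 1 without number 1 of the double mutant and 7 without Tet2+/- 1 or 2. Against Tet2+/- they were 8 or 9 and 13 to 19 under every single omission that left both number 3 libraries.

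**Figure D3:**
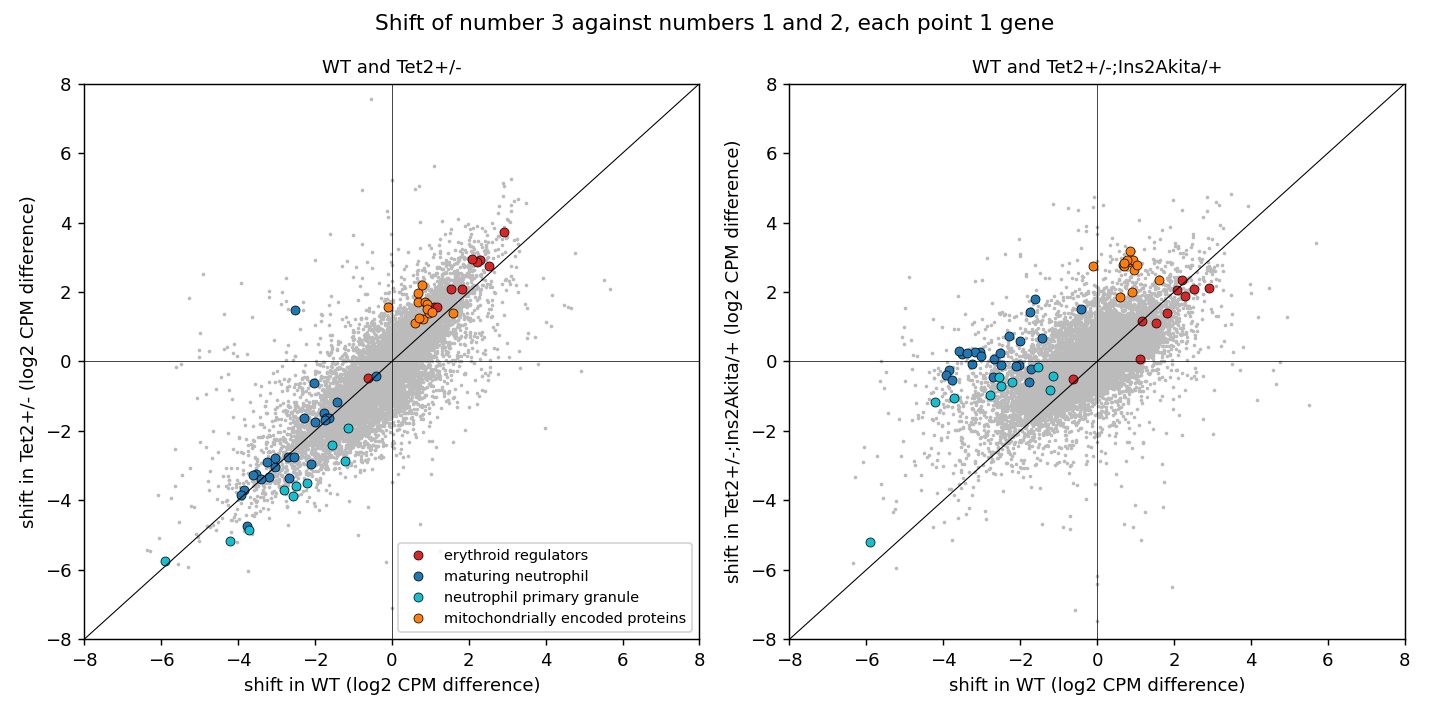
Shift of each of 14914 genes (log2 CPM difference, number 3 minus the mean of numbers 1 and 2) in WT on the horizontal axis against Tet2+/- (left) and against the double mutant (right), with 4 lists in colour and the line of equal shifts. Maturing neutrophil genes lie near the line on the left for most genes and near 0 on the vertical axis on the right, while mitochondrially encoded genes lie above the line in both, apart from mt-Co2 on the left.

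Mitochondrially encoded messages were highest in number 3 of the double mutant. Over 13 protein genes the medians were 0.81 in WT, 1.5 in Tet2+/- and 2.78 in the double mutant. mt-Co1, subunit 1 of cytochrome c oxidase, had 6010, 5440 and 9100 CPM in WT, 4270, 4460 and 14200 CPM in Tet2+/-, and 4880, 5500 and 35700 CPM in the double mutant. Its shift was higher in the double mutant than in WT by 2.11 ± 0.34 (adjusted p = 0.0382), and the difference from Tet2+/- was 1.08 ± 0.33 (adjusted p = 0.0784). mt-Cytb, cytochrome b of complex III, had 3130, 3130 and 5690 CPM in WT, 2340, 3270 and 9150 CPM in Tet2+/-, and 2490, 2540 and 22600 CPM in the double mutant. The difference was 2.31 ± 0.37 from WT (adjusted p = 0.0405) and 1.46 ± 0.37 from Tet2+/- (adjusted p = 0.0473). Against Tet2+/-, mt-Nd1 of complex I was called too, at 1.66 ± 0.40 (adjusted p = 0.0402). No other mitochondrially encoded protein gene was called in either comparison. With the replicate block none was, nor without any 1 of WT 1, WT 2 and numbers 1 and 2 of the double mutant. Without Tet2+/- 1 or 2, 8 of the 13 were called against WT and 6 against Tet2+/-.

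mt-Nd1, mt-Nd2, mt-Nd4, mt-Nd5 and mt-Atp8 were also abundant, at 514 CPM or more in every library. mt-Atp6, mt-Co2, mt-Co3 and mt-Nd3 did not exceed 9.06 CPM in any library, and mt-Nd4l and mt-Nd6 did not exceed 35.6 CPM. Near-identical nuclear copies of mitochondrial genes and overlapping reading frames can take or remove such reads, and the counting rule is not given in the sources used here. The 2 genes of the list that met the rule for a shared shift, mt-Atp6 and mt-Co2, are among those with few counts.

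Nuclear genes of the respiratory chain had smaller shifts. None of 30 was shifted in all 3 genotypes, 27 had the same sign upward in all 3, and the medians were 0.498, 0.601 and 0.408. Over all tested genes, 4713 of 14914 had an upward sign in all 3. Atp5b, a catalytic subunit of ATP synthase, had 944, 930 and 1630 CPM in WT, 1010, 1070 and 1960 CPM in Tet2+/-, and 947, 965 and 1250 CPM in the double mutant. For this nuclear gene number 3 of the double mutant was the lowest of the 3 number 3 libraries, and for mt-Co1 it was the highest. Of 23 genes for expression of mitochondrial DNA and protein import, 1 was shifted, Ppargc1a (lower, at 1.91 CPM or less throughout). Of all genes tested, 6.73% were shifted lower. Hspd1, the matrix chaperonin, had shifts of 0.57, 1.30 and -0.03.

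Sqstm1, the autophagy receptor p62, was lower in number 3 of each genotype, with 1050, 965 and 176 CPM in WT, 1050, 1250 and 193 CPM in Tet2+/-, and 982, 914 and 279 CPM in the double mutant. Ulk1, the kinase that starts autophagy, had a shared shift of -1.29 ± 0.22. Sqstm1 and Ulk1 were the 2 of 11 mitophagy genes shifted, beside 6.73% of all genes tested shifted lower. Values that bear on RNA quality were mixed. Median shifts of 27 cytosolic ribosomal protein genes were 0.152, 0.171 and 0.521. Malat1, a nuclear RNA, had shifts of -1.32, -0.81 and -1.17, but the medians of the 5 nuclear retained RNAs tested were -0.195, 0.02 and 0.00563. By exon length, 3 equal groups of genes, from short to long, had median shifts of 0.0399, 0.0178 and -0.0898 in WT, 0.00536, -0.0148 and -0.0581 in Tet2+/-, and 0.232, 0.0067 and -0.179 in the double mutant. The part of RNA quality in the mitochondrial share was not tested.

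The median shift of basophil, mast cell and eosinophil genes lay below 0 in Tet2+/- and above it in the double mutant. The medians over 16 genes that passed of 19 listed were 0.09 in WT, -1.63 in Tet2+/- and 0.89 in the double mutant. Of the 16, 4 (Hdc, Ear1, Ear2 and Ear6) had shifts below 0 in all 3 genotypes. Hdc, which makes histamine, had 314, 346 and 130 CPM in WT, 286, 220 and 56.1 CPM in Tet2+/-, and 349, 503 and 259 CPM in the double mutant. Mcpt8, a basophil protease on chr14:56082166-56085273, had 611, 488 and 905 CPM in WT, 545, 652 and 244 CPM in Tet2+/-, and 141, 191 and 1630 CPM in the double mutant. Prss34, another basophil protease, had 1460, 976 and 1580 CPM in WT, 920, 850 and 376 CPM in Tet2+/-, and 315, 543 and 3230 CPM in the double mutant. The double mutant's numbers 1 and 2 were the lowest of all libraries numbered 1 and 2 for both genes, and its number 3 was the highest of all. The difference of the shift between double mutant and Tet2+/- was 4.60 ± 0.38 for Mcpt8 (adjusted p = 0.00367) and 4.14 ± 0.53 for Prss34 (adjusted p = 0.00782). Of the 16 genes, 11 were called higher against Tet2+/- and 1, Mcpt8, against WT, beside 7% and 0.838% of all genes tested. Against Tet2+/- the count was 7 without WT 1 and 7 without number 1 of the double mutant, and Mcpt8 was not called against WT with the replicate block, without either of these libraries or without WT 2.

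Some megakaryocyte, stem cell and MHC class II genes differed between the same 2 genotypes. For 20 megakaryocyte and platelet genes the medians were 0.476 in WT, -0.701 in Tet2+/- and 1.65 in the double mutant. In double mutant minus Tet2+/-, 8 of them were called higher and none lower, beside 7% higher and 2.96% lower of all genes tested. Itga2b, the platelet integrin CD41, had 141, 136 and 217 CPM in WT, 128, 154 and 84.8 CPM in Tet2+/-, and 123, 97.7 and 386 CPM in the double mutant. Other abundant members, Plek, Thbs1 and Cd9, were lower in number 3 of all 3 genotypes. Plek, a protein kinase C substrate of platelets and leukocytes, had shifts of -1.57, -2.71 and -0.957. Summed over the list, number 3 had 652 CPM against 1386 and 1586 in WT, 385 against 1556 and 1349 in Tet2+/-, and 1230 against 1199 and 1301 in the double mutant. Of 22 stem and progenitor genes, 8 were called higher (Cd34, Sox4, Angpt1, Erg, Meis1, Hlf, Myct1 and Procr). Cd34, a surface protein of early progenitors, had 88.7, 110 and 103 CPM in WT, 143, 177 and 31 CPM in Tet2+/-, and 123, 114 and 249 CPM in the double mutant. Kit and Myb, expressed across progenitors, hardly differed in any genotype, with shared shifts of 0.06 ± 0.06 and 0.15 ± 0.04. Of 8 MHC class II genes, 6 were called higher. H2-Aa had 213, 191 and 76.7 CPM in WT, 247, 269 and 53.9 CPM in Tet2+/-, and 62.7, 62.7 and 31.5 CPM in the double mutant. Without WT 1 the counts for these 3 lists were 4, 4 and 1, and without number 1 of the double mutant 5, 4 and 2. Without WT 2 or number 2 of the double mutant, 2 of the MHC class II genes were called, and without the latter 4 of the stem and progenitor genes. The megakaryocyte count was 12 without Tet2+/- 1.

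Cell cycle genes were called in the other direction. Between double mutant and Tet2+/- the shift was lower for 9 of 18 S phase genes and 10 of 16 genes of G2 and mitosis, and higher for none. Of all genes tested, 2.96% were called lower and 7% higher in that comparison. Cdc6, which loads the replicative helicase onto DNA, had 93.9, 91.2 and 133 CPM in WT, 77, 70.6 and 230 CPM in Tet2+/-, and 81, 88.3 and 61.4 CPM in the double mutant. Its difference was -2.10 ± 0.23 (adjusted p = 0.00665). Rrm2, the regulated subunit of ribonucleotide reductase, had 305, 275 and 357 CPM in WT, 247, 237 and 571 CPM in Tet2+/-, and 358, 385 and 238 CPM in the double mutant. With the replicate block 3 and 5 genes of the 2 lists were called. Without WT 1, WT 2 or number 2 of the double mutant 2 and 2 were called, and without its number 1 the counts were 2 and 4. Without Tet2+/- 1 they were 14 and 15.

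**Figure D4:**
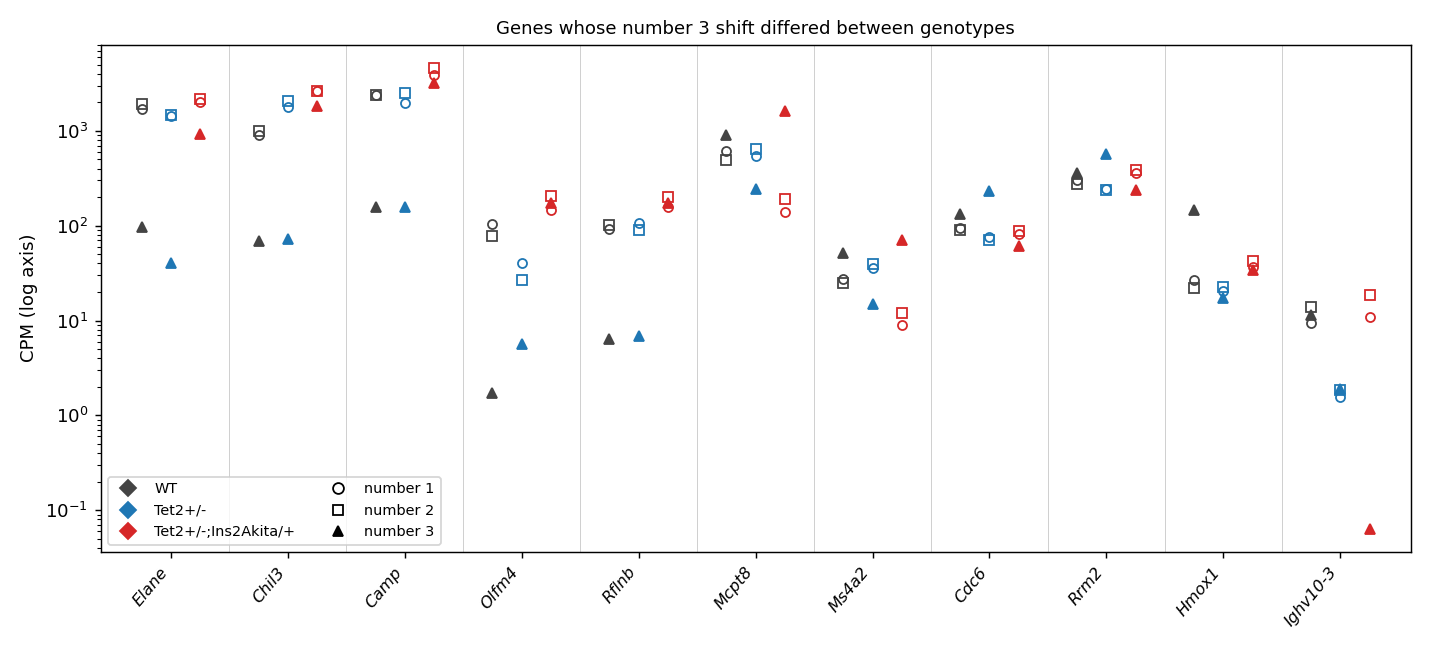
CPM (log axis) in each library of 11 genes whose number 3 shift differed between genotypes at an adjusted p under 0.05 in at least 1 comparison; colours are genotypes, filled triangles number 3, open circles and squares numbers 1 and 2. For Chil3, Camp, Olfm4 and Rflnb the WT and Tet2+/- triangles lie far below their open symbols and the double mutant triangle close to its own. For Elane all 3 triangles lie below, that of the double mutant by least, and for Mcpt8 and Ms4a2 the double mutant triangle is the highest point.

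The median shift of macrophage genes stood apart in WT. Of 14 listed markers of resident marrow macrophages, 12 passed the filter (not Mertk and Timd4), and the medians were 3.11 in WT, 0.82 in Tet2+/- and -0.33 in the double mutant. Siglec1, a receptor of macrophages around erythroblasts, was the only one shifted higher in all 3, beside 3.9% of all genes tested. Hmox1, which breaks down heme, on chr8:75093621-75100589, had 26.8, 22.3 and 145 CPM in WT, 20.5, 22.5 and 17.2 CPM in Tet2+/-, and 36.3, 42.9 and 34.3 CPM in the double mutant. Its shift in the double mutant was lower than in WT by 2.76 ± 0.29 (adjusted p = 0.0108). Vcam1, an adhesion molecule of macrophages and stroma, was called lower too, by 2.68 ± 0.38 (adjusted p = 0.0295), and lost the call without WT 1, WT 2 or number 1 of the double mutant. Between double mutant and WT, 0.0738% of all genes tested were called lower. Unlike Hmox1, Vcam1 was not raised in number 3 of WT, with 105, 132 and 96.7 CPM in WT 1, 2 and 3. It had 75.2, 54.6 and 9.71 CPM in Tet2+/-, and 121, 94.4 and 13.8 CPM in the double mutant. Between Tet2+/- and WT no gene of the list was called (Hmox1, -2.88 ± 0.29, adjusted p = 0.0599). Axl had 8.27, 5.29 and 77.7 CPM in WT, 5.54, 4.43 and 8.87 CPM in Tet2+/-, and 11.1, 5.79 and 9.76 CPM in the double mutant. The complement genes C1qa, C1qb and C1qc were at 46.1 to 49.5 CPM in WT 3 and at 0.898 to 5.53 CPM elsewhere, except number 1 of the double mutant with 12.2 to 33 CPM. The differences of their shifts between the double mutant and the other 2 genotypes did not pass the test (adjusted p from 0.154 to 0.334).

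Monocyte, dendritic and lymphoid lists were mixed. Of 16 monocyte genes, 4 were shifted lower (Ly6c2, Klf4, F13a1 and Vcan). Klf4, a factor of monocyte differentiation, had 245, 282 and 69.1 CPM in WT, 355, 299 and 67.1 CPM in Tet2+/-, and 252, 271 and 54.5 CPM in the double mutant, alike in the 3 genotypes. Irf8, which directs monocyte and dendritic fates, had 180, 175 and 355 CPM in WT, 200, 254 and 162 CPM in Tet2+/-, and 89, 87.2 and 62.7 CPM in the double mutant. Of 14 dendritic genes, 13 passed and 1 was shifted lower, Ccr9, with a shared shift of -2.91 ± 0.15. Of 18 B lineage genes, Ighm alone was shifted, higher, with 725, 1330 and 4770 CPM in WT, 1760, 1860 and 4120 CPM in Tet2+/-, and 517, 197 and 800 CPM in the double mutant. Cd79a, which carries the B cell receptor's signal, had a shared shift of -0.08 ± 0.31. Of 22 T and NK cell genes, 1 was shifted lower, Eomes, and the medians were -1, -0.79 and -0.37. A single shifted gene in lists of this size is a share near the 3.9% higher and 6.73% lower of all genes tested.

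The medians of 3 lists of stress and signalling genes were below 0 in number 3 of all 3 genotypes. Of 18 genes of the unfolded protein response, the program by which cells meet misfolded protein in the endoplasmic reticulum, 6 were shifted lower (Herpud1, Xbp1, Edem1, Ddit3, Trib3 and Chac1) and 16 had the same sign downward. Over all tested genes, 4858 of 14914 had a downward sign in all 3, and 6.73% were shifted lower. Ddit3, the factor CHOP, had 184, 185 and 41.8 CPM in WT, 175, 222 and 41.9 CPM in Tet2+/-, and 178, 163 and 48.7 CPM in the double mutant. Hspa5, the chaperone BiP and the most abundant gene of that list, had a shared shift of -0.67 ± 0.21. Of 16 p53 and apoptosis genes, 5 were shifted lower (Mdm2, Pmaip1, Bbc3, Sesn2 and Fas) and none higher, while 9 had the same sign downward and 5 (Ccng1, Bax, Aen, Zmat3 and Gdf15) upward. Mdm2, the ligase that degrades p53, had 265, 282 and 83 CPM in WT, 277, 237 and 79.7 CPM in Tet2+/-, and 331, 383 and 137 CPM in the double mutant. Of 22 NF-kB subunits and targets, a list drawn up after these counts had been seen, 10 were shifted lower (Rel, Nfkb2, Acod1, Birc3, Icam1, Nfkbie, Relb, Traf1, Cd83 and Cd86). Nfkbia, Tnfaip3 and Nfkbiz, the most abundant on that list, were not, with shared shifts of -0.57 ± 0.21, -0.07 ± 0.35 and -0.15 ± 0.15.

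Immediate early genes were not shifted as 1 group. Of 22, 4 were shifted higher (Fos, Egr1, Ppp1r15a and Dusp1) and 1 lower (Atf3). Egr1, a factor induced within minutes of stimulation, had 154, 173 and 671 CPM in WT, 194, 128 and 532 CPM in Tet2+/-, and 258, 333 and 1240 CPM in the double mutant. Atf3 had 297, 375 and 67.4 CPM in WT, 460, 417 and 103 CPM in Tet2+/-, and 388, 486 and 172 CPM in the double mutant. In glycolysis 3 of 16 genes were shifted lower (Pfkp, Hk2 and Slc2a1). Of 17 interferon response genes, 1 was shifted higher (Usp18) and 2 lower (Rsad2 and Ifit1). No heat shock gene was shifted in all 3 genotypes, and the list's medians were -0.78, 0.57 and -0.94. Of 11 replication dependent histone genes that passed, 2 were lower (Hist1h1c and Hist1h2bc). Of the 5 nuclear retained RNAs that passed, none was shifted. Over all genes tested, 3.9% were shifted higher and 6.73% lower. The single higher interferon gene and the single lower immediate early gene are near those shares of their lists.

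**Figure D5:**
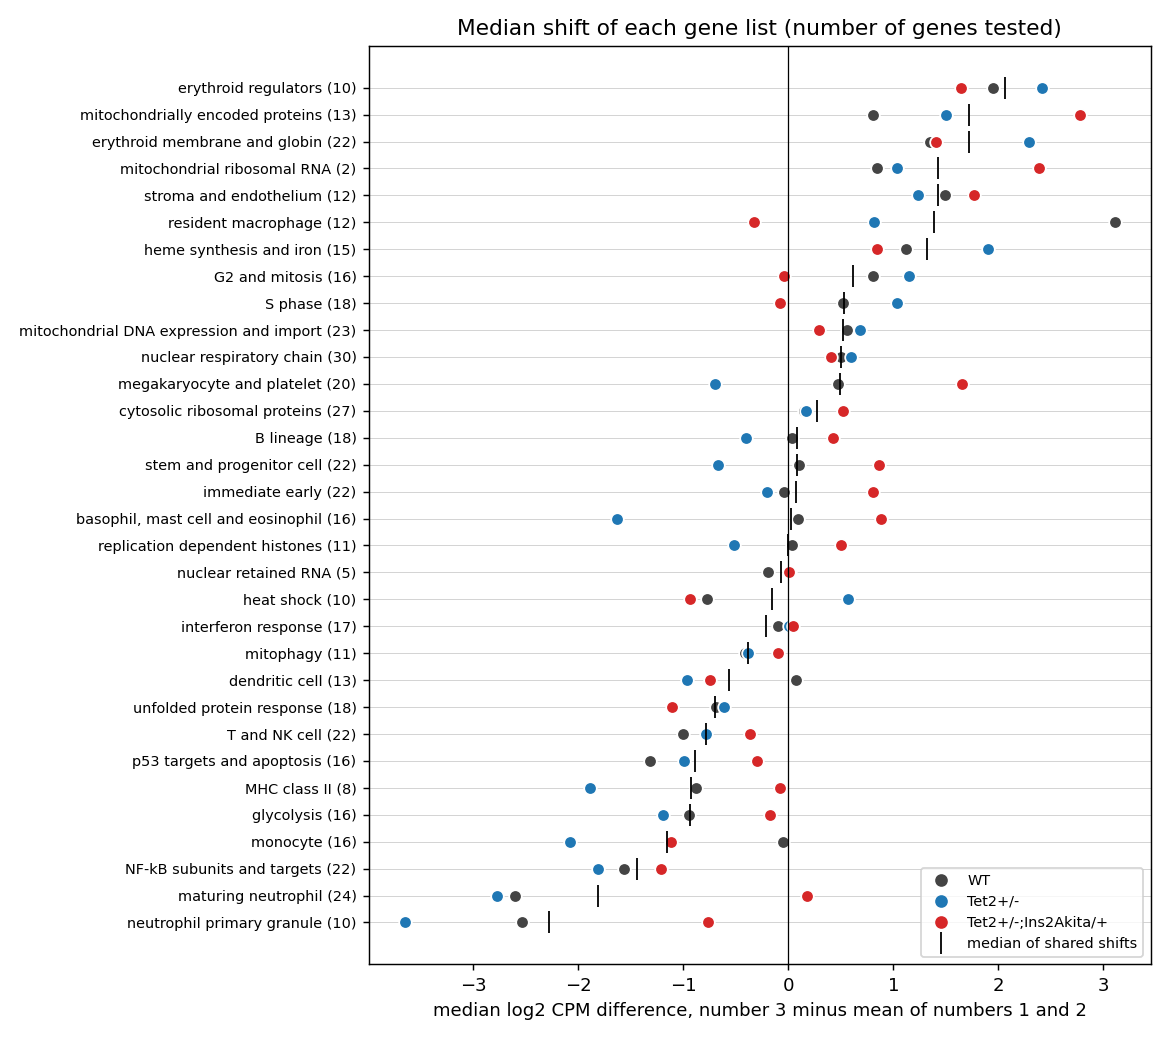
Median shift of each gene list in each genotype (coloured points) and the median of the members' shared shifts (black tick), in log2 CPM difference of number 3 against numbers 1 and 2, with the number of genes tested in brackets. Erythroid regulators lie at 1.64 to 2.42 in all 3 genotypes, while the red points of the maturing neutrophil, resident macrophage, megakaryocyte and basophil lists lie on another side from, or far from, at least 1 of the other genotypes.

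Some calls rested on immunoglobulin segments or on 1 library. Ighv10-3, a heavy chain variable segment, had 9.38, 14 and 11.5 CPM in WT, 1.56, 1.86 and 1.88 CPM in Tet2+/-, and 10.9, 18.5 and 0.0638 CPM in the double mutant. Ighv1-12 had 236, 149 and 0 counts in the double mutant, and 181, 146 and 531 counts in WT. Eps8l1, an actin regulator, had 81, 63 and 0 counts in the double mutant, and 1, 0 and 1 in Tet2+/-. Igkv1-99 had 54, 41 and 0 counts in the double mutant. A count of 0 in number 3 of the double mutant allows a level of up to 0.175 CPM (3 counts). Variable segments are near-identical copies whose reads can be split, so their values are uncertain. The only gene called between Tet2+/- and WT, Gm15459, an unnamed gene model on chr5:5781615-5783555, had 281 CPM in Tet2+/- 3 and 1.08 to 3.19 CPM in the other 8 libraries.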

How the data were processed

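The authors deposited 1 table of whole-number counts of reads per gene for the series, with no normalization, per the file headers. Tools listed in the submitters' processing notes are bcl2fastq, Trimmomatic 0.32 and TopHat2 2.1.1, with build GRCm38. How reads were counted to genes, with which annotation and strand setting, is not given in the sources used here, so overlapping, antisense and near-identical genes are uncertain. Of 31060 gene identifiers, 30875 matched names and positions of GENCODE M21 (GRCm38) when the version was left off and 25042 with it. 1 column, named A3, matched no label and was not used. The fourth sample labelled as double mutant had no column under its label. Which sample the unmatched column holds is not given in the sources used here. Promoter sequences came from RefSeq (GRCm38.p6).

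In R 4.3.3 with edgeR 4.0.16, genes were kept by filterByExpr with genotype as group (14914 of 31060) and scaled by TMM; log2 CPM used a prior count of 2. Differences of the shift were tested by glmQLFit (robust) and glmQLFTest, with 1 mean and 1 number 3 term for each genotype, 3 residual degrees of freedom and Benjamini-Hochberg adjusted p under 0.05. The p-values measure only the spread between numbers 1 and 2 within genotypes, which may be technical, and hold no spread of number 3 libraries. The test was tried on simulated counts with 200 changed genes. It missed most of the smallest changes, many of middle size and some of the largest, and called a few unchanged genes. Simulated number 3 libraries varied like numbers 1 and 2, so the trial cannot check whether the real ones do. No 2 libraries of a genotype agreed within sampling noise.

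The members, the gene lists and the tests were chosen with earlier results of these data known, and 1 of the lists, NF-kB, after these counts had been seen. Genes named were Tet2; up to 4 members of a list by mean CPM; up to 12 genes each way by the smallest shift, averaging at least 10 CPM; up to 10 called genes each way for a difference by p, averaging at least 1 CPM (symbols of the Gm or Rik kind left out of the last 2); and sets of 5 or fewer. Other named members of lists, among them Klf1, Epor, Gata1, the globins, Alas2, the C1q genes and the sets of more than 5, were chosen after their values were seen. Some members of the lists are counted but not reported by name here. Deviations from genotype means correlated at 0.336 to 0.804 between same-numbered libraries and at 0.23 to 0.716 between numbers 1 and 2 crossed, and 4 of 9 libraries were closest to their own number; the pairing comes from the labels' numbers. Alternatives were DESeq2 1.42.0, limma 3.58.1 with voom, other scalings and filters, a replicate block and the omission of each library.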

Additional observations from a re-analysis of the deposited data

Results flagged for a closer look

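The genes below were flagged because the shift of number 3 against numbers 1 and 2 differed between 2 genotypes in edgeR's quasi-likelihood test of that difference (adjusted p under 0.05), up to 10 each way for a comparison. Values are log2 differences of the shift.

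Against WT, the double mutant's shift was higher for Rflnb by 3.87, Rhou by 3.67, Olfm4 by 5.71, Camp by 3.52, Chil3 by 3.25, Elane by 3.06, Mgst2 by 2.96, Clec4a2 by 2.86, Sept5 by 2.79 and Ltb4r1 by 2.56, each with an adjusted p of 0.0105. All 10 were lower in number 3 than in numbers 1 and 2 of WT, and Elane and Sept5 were lower by at least 1 log2 unit in all 3 genotypes. It was lower in the double mutant by -2.76 for Hmox1, -2.68 for Vcam1, -3.18 for Jmjd7, -2.21 for Tifab, -7.69 for Ighv10-3, -6.08 for Ighv1-26, -5.70 for Ighv2-3 and -3.12 for Igkv4-63. Ighv1-12 (adjusted p = 0.0105) and Eps8l1 (adjusted p = 0.0157) had 0 counts in number 3 of the double mutant, so no fold is given. Ighv1-26, Vcam1, Jmjd7, Tifab, Igkv4-63 and Ighv2-3 each lost the call under 3 or 4 of the 7 omissions of 1 library, with adjusted p up to 0.127; the others of this comparison kept it. With the replicate block Jmjd7, Tifab and Igkv4-63 lost the call too, with adjusted p of 0.0662, 0.0653 and 0.069.

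Against Tet2+/-, the double mutant's shift was higher for Mcpt8 by 4.60, Chil3 by 4.21, Ms4a2 by 4.10, Adgrl4 by 4.05, Elane by 4.01, Rflnb by 3.81, Cdh1 by 3.58, Rhou by 3.47, Clec4a2 by 3.30 and Ltb4r1 by 3.22. Mcpt8 and Ms4a2, the beta chain of the IgE receptor, are basophil and mast cell genes. It was lower by -2.88 for Zfp949, -2.60 for Plxna1, -2.13 for Ccne2, -2.10 for Cdc6, -1.98 for Uhrf1bp1, -1.88 for Rrm2, -7.85 for Ighv10-3, -7.28 for Ighv1-26 and -3.64 for Ighv1-53. Igkv1-99 (adjusted p = 0.00855) had 0 counts in number 3 of the double mutant. Of these 20 genes, Ighv1-26 lost the call without Tet2+/- 2, and the others kept it under the 7 omissions. Between Tet2+/- and WT the shift of Gm15459 differed by 8.18, from its level in 1 library.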

How the results depend on the processing

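The shared shift was counted again with other settings. Genes higher and lower in all 3 genotypes numbered 1800 and 2402 at a size of 0.5 log2 units, 95 and 163 at 2, and 3787 and 3982 where number 3 had only to lie outside the range of numbers 1 and 2. With a mean of at least 5 CPM, 361 were higher. Leaving out 1 library gave 528 to 1431 higher and 961 to 2149 lower, the highest without number 3 of the double mutant. Upper quartile scaling moved the median shift of all genes to 0.0802, 0.00988 and 0.19 in WT, Tet2+/- and the double mutant, gave 757 higher and 777 lower, and moved the share of higher calls between double mutant and Tet2+/- from 70.3 to 83.2%. The mean ratio of the mitochondrial share ranged from 2.42 to 4.81 over the omissions and from 3.84 to 4.05 over other denominators.

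List medians of the shared shift moved by more than their spread between genotypes in a few cases. With upper quartile scaling the nuclear respiratory chain was at 0.602 and the interferon list at -0.112. With a mean of at least 5 CPM the stromal list was at 0.815, p53 targets at -1.52 and interferon at -0.0937. Against number 1 alone, stroma was at 0.879, nuclear retained RNA at -0.217 and interferon at -0.0925, and against number 2 alone stroma was at 1.75. Omissions gave medians of 1.12 to 1.7 for stroma, -0.445 to -0.0983 for mitophagy, -0.266 to -0.12 for interferon and -0.283 to -0.0207 for nuclear retained RNA. No median past 1 log2 unit changed sign.

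The number of genes whose shift differed between genotypes moved most. For double mutant minus WT it was 885 with no filter, 421 with only those 6 libraries, 48 with voom and 522 with DESeq2, and 29 to 403 over the omissions. For double mutant minus Tet2+/- it was 2904 with no filter and 491 with only those 6 libraries, and 379 to 3215 over the omissions. For Tet2+/- minus WT it was 4 with upper quartile scaling, 438 with no filter and 191 with DESeq2, and 1 to 130 over the omissions. The F test over all 3 genotypes, 621 as reported, called 2582 with no filter, 348 with voom, 1582 with DESeq2, and 98 to 2173 over the omissions. With the replicate block the pairwise counts against WT and Tet2+/- were 84 and 921 and the F test called 391; the block left 1 gene for Tet2+/- minus WT, and the fitted shared shift reached 1 log2 unit for 1630 genes upward and 2414 downward, beside 1488 and 2394. Of the 41 named differences, 3 (Jmjd7, Tifab and Igkv4-63, double mutant minus WT) lost their call with the block, 7 with voom and 1 with only 6 libraries, and none changed direction under any alternative run. The causes of the changed counts were not tested. Leaving out a number 3 library removed the comparisons of its genotype. With 1 number 3 library for each genotype, its spread cannot be measured.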
